A study of Mus musculus with 24 samples.

Results

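The snoRNA host noncoding genes examined here are Gas5, Snhg1, Snhg3, Snhg5, Snhg6, Snhg8, Snhg12 and Snhg15. They were taken by symbol from the deposited gene count table, where all 8 were among 52997 symbols and all 8 were among the 16263 genes that passed the filter on low counts. The libraries came from hindlimb skeletal muscle of C57BL/6 mice aged 8 weeks, either cardiotoxin-injured and taken on day 1, or uninjured. Cardiotoxin, from cobra venom, kills muscle fibers, after which the muscle regenerates. In each state 4 sorted populations were profiled, with 3 libraries for each of the 8 groups: CD31+ endothelial cells, CD45+ hematopoietic cells, mesenchymal stromal cells (MSC, sorted as CD45-CD31-Sca1+PDGFRa+) and muscle satellite cells (MuSC, sorted as CD45-CD31-Sca1-Vcam1+). Each library was made from 1000 cells sorted in 2 rounds, with oligo(dT) priming, so it reports polyadenylated RNA.

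Small nucleolar RNAs (snoRNAs) guide the chemical modification of ribosomal RNA: box C/D snoRNAs guide ribose methylation, and box H/ACA snoRNAs guide the conversion of uridine to pseudouridine. Most mammalian snoRNAs are cut out of introns. Some of the host genes encode ribosomal proteins or translation factors, while others, including the genes described here, yield a spliced RNA with little or no coding capacity. Several of these spliced RNAs begin with a terminal oligopyrimidine tract, as ribosomal protein mRNAs do, and are degraded by nonsense-mediated decay once they are translated; Gas5, first found as a transcript that accumulates in growth-arrested cells, is the best studied example.

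The total count per library was 2301202 to 7649841, and 3 counts corresponded to 0.389 to 1.02 CPM (read counts scaled to a common library size with edgeR's TMM method). The defining markers matched the sort gates: satellite cell markers summed to 1160 to 1527 CPM in injured MuSC and 3066 to 3696 CPM in uninjured MuSC, and to at most 3.67 CPM in every other library. Hematopoietic markers summed to 207 CPM in replicate 1 of injured CD31+ cells, against 8.73 and 7.30 CPM in its other replicates and 4.68 to 8.76 CPM in uninjured CD31+ cells. Stromal markers summed to 248 CPM in replicate 3 of injured CD45+ cells, against 62.4 and 74.7 CPM in its other replicates. Endothelial markers summed to 46.9 to 109 CPM in uninjured CD45+ cells. Erythroid transcripts summed to 70.2 to 848 CPM in injured and 5.93 to 381 CPM in uninjured CD31+ cells. Of the 5 stromal markers, all 5 had counts in injured MuSC, summing to 352 to 704 CPM, and 4 had counts in uninjured MuSC, summing to 938 to 1066 CPM with Pi16 at 0. Muscle fiber transcripts were lower after injury in every population, with no overlap: in MSC, the 5 fiber markers summed to 2.66 to 13.3 CPM in injured libraries and 130 to 375 CPM in uninjured libraries. The part of these carried-over or admixed transcripts in the results was not tested. The samples are bulk RNA, so fewer cells of one kind and less RNA per cell cannot be told apart.

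The reference annotation (GENCODE vM21, GRCm38, the assembly also called mm10) places 30 snoRNA genes inside the 8 hosts, under 28 distinct symbols. Gas5 carries 10, Snhg1 carries 8, Snhg12 carries 5, Snhg3 and Snhg5 carry 2 each, and Snhg6, Snhg8 and Snhg15 carry 1 each. Of the 28 symbols, 25 had 0 counts in all 24 libraries and the other 3 (Snord87, Snora16a and Snora73a) had 64 counts together. How a read that hits both a snoRNA and a host exon was counted is not stated, so a count of 0 does not show that snoRNA reads were absent. In all hosts but Snhg3 and Snhg6 the snoRNAs lie within annotated host exons on the same strand, covering up to 20.95% of the exon bases (Snhg1). In Snhg3, Snora73a overlaps an exon in part and Snora73b overlaps none, and the Snhg6 guide overlaps none. Where they overlap, any snoRNA reads in the host counts cannot be told apart from spliced or unspliced host reads. One guide from each of 3 hosts is shown, with both kinds of snoRNA among them. The Gas5 and Snhg6 guides are of the box C/D kind, with the C box (TGATGA) and the D box (CTGA) in capitals, and the Snhg15 guide is of the H/ACA kind, with its ACA box in capitals. They lie at chr1:161038082-161038158 on the plus strand, chr1:9942463-9942549 on the minus strand and chr11:6528033-6528165 on the minus strand.
Snord47 in Gas5: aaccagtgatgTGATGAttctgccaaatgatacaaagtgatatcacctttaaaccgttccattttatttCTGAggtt
Snord87 in Snhg6: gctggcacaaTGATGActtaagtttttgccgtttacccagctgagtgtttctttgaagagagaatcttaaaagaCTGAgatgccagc
Snora9 in Snhg15: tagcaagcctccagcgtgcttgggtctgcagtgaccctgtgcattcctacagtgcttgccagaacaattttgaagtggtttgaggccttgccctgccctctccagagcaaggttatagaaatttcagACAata

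The start sites of 7 hosts were found in the RefSeq promoter table (GRCm38.p6), which lists 8 starts for them, 2 of these for Gas5. For 4 starts, the 50 bases before and the 50 from the first transcribed base on are shown. They are those of Gas5 and Snhg12, the pair of hosts whose levels were most alike over the libraries, and of Snhg1 and Snhg15, which changed in the same 3 populations. Capitals mark TATA, which reads the same on both strands, beginning 40 to 20 bases before the start; an unbroken run of at least 5 C or T bases beginning within 10 bases of the start; and CACGTG, the E-box, which also reads the same on both strands. The windows are chr1:161035116-161035215 (plus strand), chr4:132308628-132308727 (plus), chr19:8723437-8723536 (plus) and chr11:6528711-6528810 (minus).
Gas5, second start: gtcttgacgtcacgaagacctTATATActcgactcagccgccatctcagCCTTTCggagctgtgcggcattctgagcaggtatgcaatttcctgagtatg
Snhg12: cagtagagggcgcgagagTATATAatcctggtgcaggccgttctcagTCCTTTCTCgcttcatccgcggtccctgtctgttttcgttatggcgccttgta
Snhg1: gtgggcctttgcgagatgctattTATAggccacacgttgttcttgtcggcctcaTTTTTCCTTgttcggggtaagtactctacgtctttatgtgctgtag
Snhg15: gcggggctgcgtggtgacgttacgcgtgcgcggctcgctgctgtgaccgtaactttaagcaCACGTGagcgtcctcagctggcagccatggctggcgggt

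A TATA in that position was present in 5 of the 8 host windows (the second start of Gas5, Snhg1, Snhg5, Snhg8 and Snhg12), which is 62.5%. The share was 5.81% of 32851 start windows of all genes, 10.14% of 69 windows of cytosolic ribosomal protein genes and 0 of 19 windows of ribosome biogenesis factor genes. A run of C and T at the start was present in 6 of the 8 host windows (75%). It was present in 37.98% of all windows, 55.07% of ribosomal protein windows and 31.58% of biogenesis factor windows. The first Gas5 start, not shown, had neither a TATA in that position nor such a run. The E-box was present in the 300-base window of 1 host start, that of Snhg15 (12.5%). It was present in 7.15% of all windows, 11.59% of ribosomal protein windows and 31.58% of biogenesis factor windows. These are matches of letters only, described without a test.

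Gas5 supplied 55.1% of all 73964 counts of the 8 genes. Expressed per kilobase of annotated exon sequence, which includes retained introns and hosted snoRNAs, its level was 138 ± 4.93 CPM per kb in injured MuSC and 162 ± 10.1 CPM per kb in uninjured MuSC (SD, n = 3 each). Snhg5 had 82.1 ± 7.04 CPM per kb in injured MuSC and 55.8 ± 4.24 CPM per kb in uninjured MuSC, and Snhg8 had 67.9 ± 2.89 CPM per kb in injured MuSC and 71.4 ± 3.85 CPM per kb in uninjured MuSC. Snhg3 was the lowest host in every group, at 2 to 40 counts in a library, and in MuSC it had 4.21 ± 1.67 CPM per kb after injury and 2.77 ± 0.811 CPM per kb without injury. Per length, Gas5 thus stood above each of the other hosts in MuSC by more than the spread between libraries. Snhg3 was counted too thinly for its changes in CPM to be resolved.

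In uninjured muscle, the hosts were mostly highest in satellite cells. Gas5 had 621, 567 and 640 CPM in MuSC, against 219, 225 and 219 CPM in MSC, 174, 196 and 234 CPM in CD45+ cells and 143, 126 and 141 CPM in CD31+ cells. The MuSC libraries lay far above all others, while the MSC and CD45+ libraries overlapped. A gene was called highest in a population when it passed against each of the other 3 populations (edgeR's quasi-likelihood test with Benjamini-Hochberg adjustment over all genes, adjusted p below 0.05). By that rule 6 of the 8 hosts were highest in uninjured MuSC (Gas5, Snhg1, Snhg5, Snhg6, Snhg12 and Snhg15), against 7.88% of all genes. Snhg8 missed it only against MSC, with 60.9 ± 3.29 CPM in MuSC and 48.5 ± 1.85 CPM in MSC (adjusted p = 0.0543). Without any 1 of 6 libraries (uninjured MSC replicate 2 or 3, injured MSC replicate 3, uninjured MuSC replicate 2 or 3, or injured MuSC replicate 3) Snhg5 was lost and 5 hosts remained, and with upper quartile scaling or DESeq2 Snhg8 was added, for 7. Smooth muscle and pericyte markers, which the MuSC gate could admit, summed to 573 to 1328 CPM in these uninjured MuSC libraries, against 7.88 to 12.6 CPM in uninjured MSC and 471 to 704 CPM in uninjured CD31+ cells; their part was not tested. No host was highest in another uninjured population, against 9.92% of all genes in CD31+ cells, 13.7% in CD45+ cells and 9.09% in MSC. High levels in uninjured MuSC were not particular to the hosts. Cytosolic ribosomal protein genes took 6.89 ± 0.571% of counts there, against 3.70 ± 0.329% in uninjured CD45+ cells, 2.27 ± 0.0337% in MSC and 1.90 ± 0.133% in CD31+ cells.

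Uninjured CD31+ cells were at the other end. There 5 hosts (Gas5, Snhg6, Snhg8, Snhg12 and Snhg15) were lowest by the same rule, against 5.8% of all genes. Snhg12, Snhg15 or both were lost without any 1 of 6 uninjured libraries, and 3 hosts were left without uninjured CD31+ replicate 2, the lowest number. None was lowest in uninjured CD45+ cells (10.5% of all genes), MSC (3.18%) or MuSC (7.56%). Snhg15 showed the widest spread between populations: 2.34, 1.69 and 4.13 CPM in uninjured CD31+ cells, against 32.3, 24.7 and 30.4 CPM in uninjured MuSC, a log2 difference of -3.44 ± 0.33 for CD31+ minus MuSC (SE, adjusted p = 3.73e-09). Its order was MuSC, CD45+, MSC and CD31+, and each neighbouring pair differed past the threshold. Snhg5 had another order: its 70.3 ± 5.11 CPM in MSC stood close under its 96.5 ± 7.33 CPM in MuSC (adjusted p = 0.0432), while CD45+ cells, at 23.6 ± 7.09 CPM, and CD31+ cells, at 21.2 ± 5.34 CPM, could not be separated (adjusted p = 0.568).

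In injured muscle fewer hosts were set apart in satellite cells. Snhg1, Snhg5, Snhg6 and Snhg8, 4 of the 8, were highest in injured MuSC, against 8.63% of all genes, and Snhg6 and Snhg8 were both lost, leaving 2 hosts, without any 1 of 6 libraries: uninjured CD31+ replicate 1, uninjured MSC replicate 1, injured MSC replicate 2 or 3, or injured MuSC replicate 2 or 3. Gas5 (adjusted p = 0.112) and Snhg12 (adjusted p = 0.111) no longer differed past the threshold between injured MSC and injured MuSC. Gas5 had 438 ± 2.65 CPM in injured MSC and 520 ± 18.5 CPM in injured MuSC, so the groups did not overlap. Gas5 and Snhg6 were lowest in injured CD45+ cells, against 16.5% of all genes, but 0 hosts were with RLE size factors, with DESeq2, without uninjured CD31+ replicate 1 or without uninjured MSC replicate 1. No host was highest in injured CD31+ cells (10.8% of all genes), CD45+ cells (15.4%) or MSC (5.75%), and none was lowest in injured CD31+ cells (4.33%), MSC (3.11%) or MuSC (5.48%). The plot of CPM by library shows both states side by side.

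**Figure D1:**
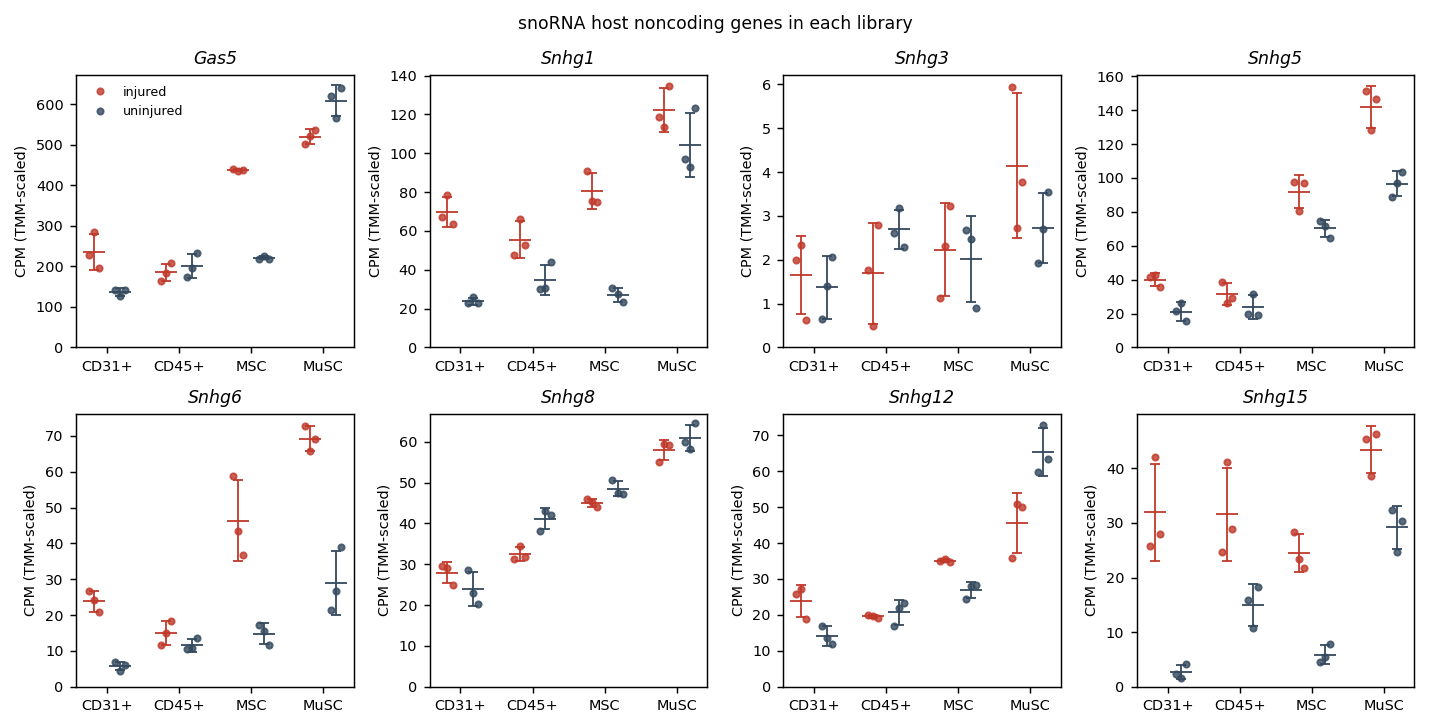
Each panel plots 1 host gene, with CPM on TMM-scaled library sizes on a vertical axis that starts at 0. Points are single libraries, horizontal marks the means and bars the SD of 3 libraries, with injured (red) left of uninjured (dark blue) in each population. Snhg15 and Snhg6 separate widely by injury in CD31+ cells and MSC, and Snhg8 is called in no population. In MuSC, Gas5 (not called) and Snhg12 (called lower) have all injured libraries below the uninjured ones.

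One day after injury the hosts rose most widely in CD31+ cells, where 6 of 8 passed as higher and 0 as lower, against 14.1% of all genes higher and 9.3% lower. With RLE size factors the share of higher among all calls in CD31+ cells was 48.3%, against 60.3% here, and with upper quartile scaling it was 50.2%. In MSC 4 passed as higher and 0 as lower, against 18.3% and 23.6% of all genes. In MuSC 2 passed as higher and 1 as lower, against 21.4% and 17.5% of all genes. In CD45+ cells 2 passed as higher and 0 as lower, against 16% and 18.5%. The host count thus stood well above the background in CD31+ cells and MSC and near it in CD45+ cells and MuSC. Of the 32 combinations of host and population, 14 were called higher, 1 lower and 17 neither; Snhg1, Snhg6 and Snhg15 rose in 3 populations each, and no host passed as higher in all 4, although Snhg15 did so with limma-voom and with each population fitted on its own 6 libraries. Counted by libraries that did not overlap, 6 hosts were higher and 0 lower in CD31+ cells (19.6% and 17.6% of all genes), 2 higher and 1 lower in CD45+ cells (20.1% and 22.9%), 6 higher and 1 lower in MSC (23% and 31.9%), and 3 higher and 2 lower in MuSC (25.5% and 24%).

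**Figure D2:**
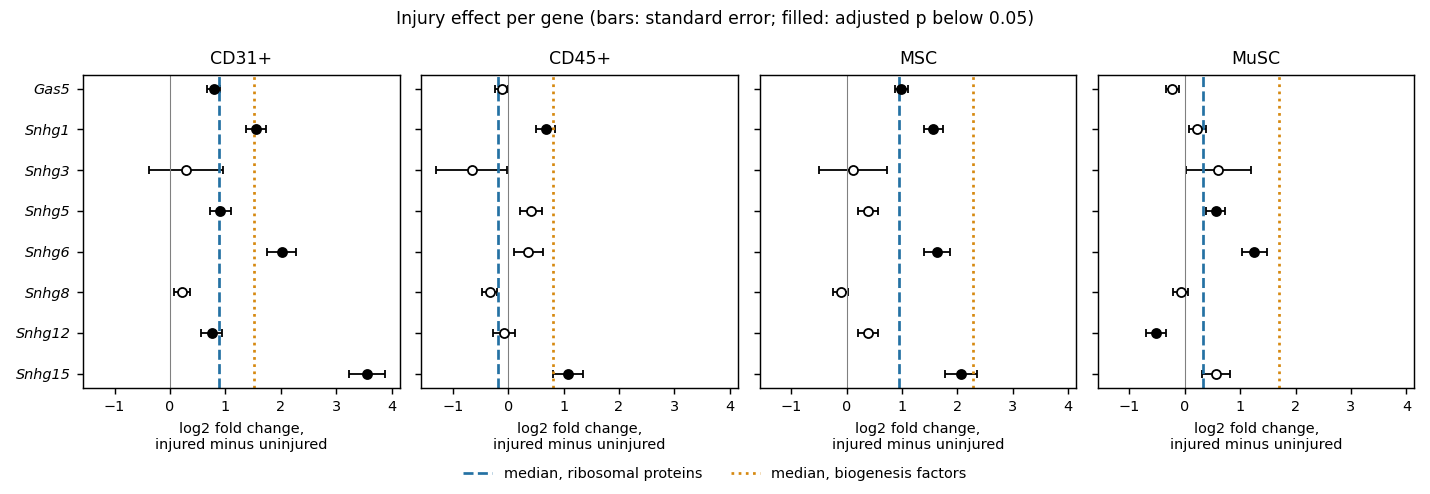
Log2 fold change, injured minus uninjured, for the 8 hosts in each population, with bars for the standard error and filled points where the adjusted p is below 0.05. Lines mark the median log2 fold change of 78 cytosolic ribosomal protein genes (dashed) and of 21 ribosome biogenesis factors (dotted). In CD31+ cells Snhg15 (3.56) and Snhg6 (2.02) lie furthest to the right, and in MSC all hosts lie left of the dotted line.

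Snhg15, the host of the H/ACA guide Snora9, showed the largest change of the 8. It had 25.8, 42.1 and 27.9 CPM in injured CD31+ cells and 2.34, 1.69 and 4.13 CPM in uninjured ones. The groups were far apart, with a log2 fold change of 3.56 ± 0.33 (SE, adjusted p = 1.38e-08), an 11.8-fold difference. In MSC it had 28.4, 23.4 and 21.7 CPM after injury and 4.52, 5.38 and 7.77 CPM without it, again with no overlap (log2 fold change 2.07 ± 0.28, adjusted p = 2.61e-06). In CD45+ cells the libraries held 24.8, 41.2 and 29.0 CPM after injury and 15.9, 10.7 and 18.3 CPM without it (1.08 ± 0.27, adjusted p = 0.00297). The MuSC libraries, at 45.4, 38.5 and 46.3 CPM after injury and 32.3, 24.7 and 30.4 CPM without it, did not overlap either, but the test was not passed (0.57 ± 0.25, adjusted p = 0.0773); it was passed with limma-voom (0.55, adjusted p = 0.0278) and on the 6 MuSC libraries alone (0.60, adjusted p = 0.0108). After injury the levels in CD31+ cells, CD45+ cells and MSC could not be separated from one another (adjusted p = 0.216 to 0.981 for the 3 pairs), although the uninjured levels of each pair had differed past the threshold.

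Snhg6, the host of the box C/D guide Snord87, had 26.6, 24.3 and 20.8 CPM in injured CD31+ cells and 6.80, 4.52 and 6.19 CPM in uninjured ones. That gap, with no overlap, corresponded to a log2 fold change of 2.02 ± 0.27 (SE, adjusted p = 3.63e-06). In MSC the values were 58.7, 43.6 and 36.8 CPM after injury and 17.3, 15.7 and 11.6 CPM without it (1.64 ± 0.24, adjusted p = 4.72e-06). Snhg6 was also the host with the largest called rise in MuSC, at 72.7, 65.8 and 69.1 CPM after injury and 21.3, 26.8 and 38.9 CPM without it (1.25 ± 0.23, adjusted p = 1.02e-04). All 3 of these comparisons kept the injured libraries above every uninjured one. In CD45+ cells the libraries overlapped, at 11.6, 14.9 and 18.2 CPM after injury and 10.4, 10.7 and 13.7 CPM without it (0.37 ± 0.26, adjusted p = 0.294).

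Snhg1, which carries 8 annotated snoRNAs, moved by about the same amount in CD31+ cells and MSC. It had 67.4, 78.6 and 63.5 CPM in injured CD31+ cells and 22.7, 26.0 and 22.7 CPM in uninjured ones (log2 fold change 1.55 ± 0.17, SE, adjusted p = 3.46e-07). In MSC it had 91.0, 75.6 and 74.9 CPM after injury and 30.5, 27.3 and 23.5 CPM without it (1.57 ± 0.17, adjusted p = 8.09e-08). Neither pair of groups overlapped, and the lowest injured library held more than 2 times the highest uninjured one. In CD45+ cells it had 47.5, 66.2 and 52.8 CPM after injury and 30.1, 30.4 and 43.8 CPM without it, with no overlap (0.68 ± 0.17, adjusted p = 0.00344). In MuSC the libraries overlapped, at 119, 113 and 135 CPM after injury and 97.0, 92.9 and 123 CPM without it (0.23 ± 0.16, adjusted p = 0.281).

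Gas5, which carries 10 annotated snoRNA genes with Snord80 entered more than once, rose in CD31+ cells and MSC. In CD31+ cells it had 227, 284 and 197 CPM after injury and 143, 126 and 141 CPM without it (log2 fold change 0.79 ± 0.12, SE, adjusted p = 2.59e-05). In MSC it had 441, 436 and 438 CPM after injury and 219, 225 and 219 CPM without it (0.99 ± 0.12, adjusted p = 4.32e-07), a 1.98-fold difference with little spread within either group. The CD45+ libraries overlapped, with 165, 184 and 208 CPM after injury and 174, 196 and 234 CPM without it (-0.12 ± 0.12, adjusted p = 0.476). In MuSC the injured libraries, at 501, 522 and 538 CPM, all lay below the uninjured ones, at 621, 567 and 640 CPM. That difference was -0.23 ± 0.12 with an adjusted p of 0.135; it passed as lower with RLE size factors (-0.33, adjusted p = 0.0217), upper quartile scaling, DESeq2 and limma-voom, and the adjusted p ranged from 0.0129 to 0.677 over all alternatives.

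Snhg12 carries 5 annotated snoRNA genes of both kinds, with Snora16a entered more than once. It was the only host called lower in any population by the edgeR fit with TMM scaling. In MuSC it had 35.9, 50.7 and 50.1 CPM after injury and 59.8, 72.9 and 63.4 CPM without it, with no overlap (log2 fold change -0.52 ± 0.18, SE, adjusted p = 0.0235). The call was lost without injured MuSC replicate 1 (-0.37, adjusted p = 0.144), the library that stood lowest, and without uninjured replicate 2 (-0.44, adjusted p = 0.0945), the highest, and also with no filter on low counts (-0.43, adjusted p = 0.242). In CD31+ cells Snhg12 rose, with 25.8, 27.2 and 18.9 CPM after injury and 17.0, 13.6 and 11.8 CPM without it (0.75 ± 0.20, adjusted p = 0.00614). The MSC groups, 35.1, 35.5 and 34.7 CPM after injury and 24.3, 28.0 and 28.2 CPM without it, did not overlap but missed the threshold (0.39 ± 0.18, adjusted p = 0.0939), which was passed on the 6 MSC libraries alone (0.56, adjusted p = 0.0103). The CD45+ libraries overlapped, at 19.6 ± 0.405 CPM after injury and 20.7 ± 3.36 CPM without it.

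Snhg5, the host of Snord50a and Snord50b, rose in CD31+ cells and MuSC. In CD31+ cells it had 41.7, 42.5 and 35.6 CPM after injury and 21.7, 26.3 and 15.6 CPM without it (log2 fold change 0.91 ± 0.19, SE, adjusted p = 0.00105). In MuSC it had 151, 128 and 147 CPM after injury and 88.9, 97.3 and 103 CPM without it (0.56 ± 0.18, adjusted p = 0.0140). The MuSC groups did not overlap, yet the call was lost without uninjured replicate 1 (0.50, adjusted p = 0.0610) and without injured replicate 1 (0.51, adjusted p = 0.0521), and with upper quartile scaling (0.43, adjusted p = 0.0572). The MSC groups, 97.7, 80.7 and 97.2 CPM after injury and 74.6, 71.7 and 64.6 CPM without it, did not overlap but missed the threshold (0.39 ± 0.18, adjusted p = 0.0847), and passed it with no filter (0.58, adjusted p = 0.00949), with limma-voom (0.38, 0.0232), on the 6 MSC libraries alone (0.56, 0.00175) and without uninjured MSC replicate 1 (0.58, 0.0308). In CD45+ cells the difference was 0.41 ± 0.20 (adjusted p = 0.111), with overlap, and the call was gained without uninjured replicate 2 (0.68, adjusted p = 0.0129).

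Snhg8, the host of the H/ACA guide Snora24, passed in no population. Its largest difference was in CD45+ cells, with 31.3, 34.5 and 31.8 CPM after injury and 38.2, 43.1 and 42.1 CPM without it (log2 fold change -0.34 ± 0.14, SE, adjusted p = 0.0674). The CD45+ groups did not overlap, and with upper quartile scaling (adjusted p = 0.0390) and with DESeq2 (adjusted p = 0.0394) the gene passed as lower. The differences in the other populations were 0.22 ± 0.14 in CD31+ cells, -0.10 ± 0.13 in MSC and -0.07 ± 0.13 in MuSC. Snhg3, which hosts Snora73a and Snora73b, had too few reads to place: its differences ran between -0.66 ± 0.65 in CD45+ cells and 0.60 ± 0.59 in MuSC, each with an SE close to or above its size. Its adjusted p lay between 0.451 and 0.921 in the 4 populations, which at this depth says nothing on whether it changed.

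The change after injury differed between populations for 5 of the 8 hosts (Gas5, Snhg1, Snhg6, Snhg12 and Snhg15) by a test on all 4 effects, against 35.9% of all genes. Setting each population against the mean of the other 3, the response in CD31+ cells was larger for Gas5, Snhg1, Snhg12 and Snhg15 (4 of 8, against 5.64% of all genes), by 0.58 to 2.32 on the log2 scale. The response in MSC was larger for Gas5, by 0.84 ± 0.14, and for Snhg1, by 0.75 ± 0.19 (2 of 8, against 6.39%). In MuSC the response was smaller for Gas5, Snhg1, Snhg12 and Snhg15 (4 of 8, against 4.17%), with differences between -1.67 and -0.78. In CD45+ cells it was smaller for Gas5, Snhg6 and Snhg15 (3 of 8, against 16.1%). The opposite direction held 0 hosts in each population, against 3.64% of all genes smaller in CD31+ cells, 9.59% larger in CD45+ cells, 8.29% smaller in MSC and 9.32% larger in MuSC. The test on all 4 effects was not passed by Snhg5 (adjusted p = 0.329), Snhg8 (0.155) or Snhg3 (0.643).

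The rise of the protein synthesis genes was set beside these values. The 78 cytosolic ribosomal protein genes had a median log2 fold change of 0.88 in CD31+ cells, -0.18 in CD45+ cells, 0.94 in MSC and 0.33 in MuSC. Of them, 75, 0, 77 and 42 passed as higher and 0, 21, 0 and 0 as lower in the same order of populations. The median of the 8 hosts was 0.85, 0.15, 0.69 and 0.39, and that of all genes was -0.04, -0.12, -0.22 and -0.04. The 21 ribosome biogenesis factors, which assemble ribosomes in the nucleolus, moved further, with medians of 1.52, 0.81, 2.29 and 1.71 and with 20, 16, 21 and 21 members higher and 0 lower. The 15 snoRNP proteins and assembly factors, which package the snoRNAs, moved about as far, with medians of 1.66, 0.77, 2.46 and 1.76 and 14, 7, 14 and 14 members higher and 0 lower. Nhp2, a protein of the H/ACA particle, had for example 375 ± 34.7 CPM in injured MSC and 46.2 ± 4.10 CPM in uninjured MSC (log2 fold change 3.02 ± 0.12, adjusted p = 5.99e-15).

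The 20 protein-coding snoRNA hosts, many of them ribosomal protein and translation factor genes, had medians of 0.92, -0.04, 1.04 and 0.26, with 19, 3, 19 and 10 members higher and 0, 4, 1 and 2 lower. Eif4a1, the helicase of the cap-binding complex and a snoRNA host, rose in all 4 populations, by 1.41 in MuSC to 1.96 in MSC. The 32 translation factors had medians of 1.07, 0.55, 1.20 and 0.97, with 30, 22, 30 and 26 members higher and 0, 3, 0 and 1 lower. The 11 genes of RNA polymerase I and its factors, which transcribe ribosomal RNA, had medians of 0.69, -0.02, 0.94 and 0.78, with 6, 1, 8 and 8 higher and 0 lower. The 14 nonsense-mediated decay factors had medians of 0.14, 0.15, 0.59 and 0.27, with 3, 5, 7 and 7 higher and 0, 1, 1 and 1 lower. Some lists overlap, with 17 genes listed more than once, and no list was tested as a set.

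**Figure D3:**
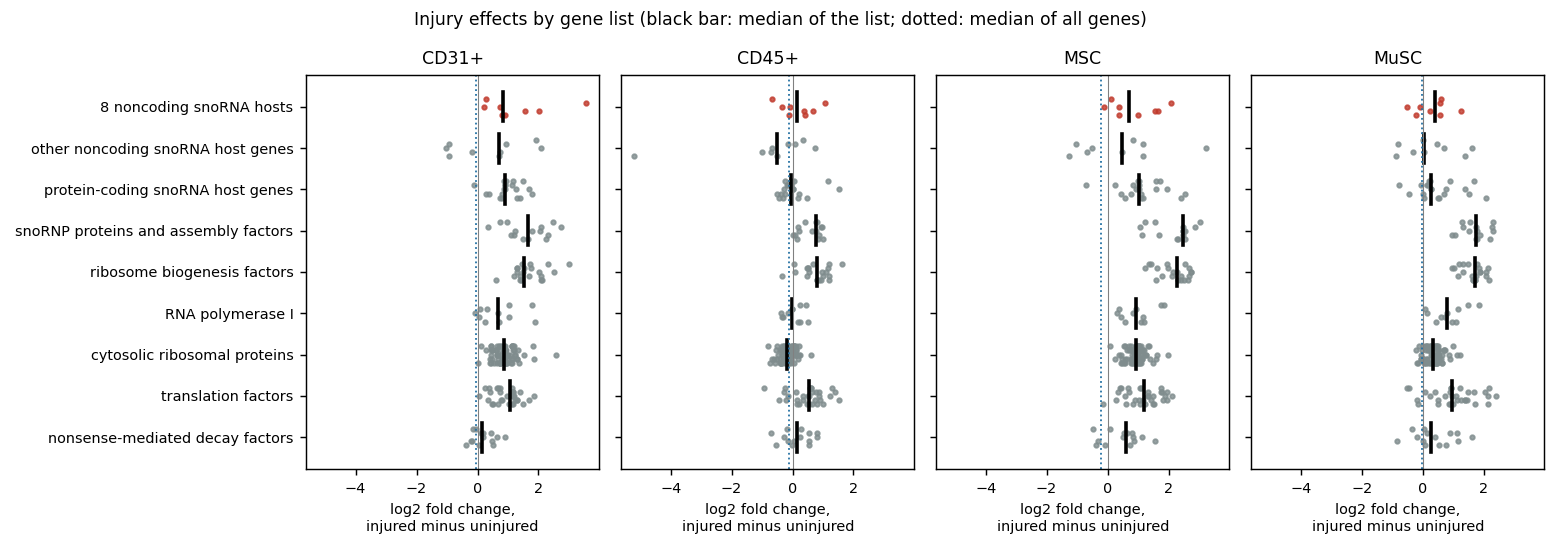
Log2 fold change, injured minus uninjured, of each tested gene in 9 lists and 4 populations. Black bars are list medians and the dotted line is the median of all 16263 genes; the point near -5 in CD45+ cells is Snhg18, which had 0 counts in the injured libraries, so that its fitted value is no measure of size. The median of the hosts (red) lies left of those of the biogenesis and snoRNP lists in each population, while Snhg15 in CD31+ cells (3.56) lies beyond every gene of both lists.

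As a share of the library, ribosomal protein genes took 3.45 ± 0.327% of counts in injured and 1.90 ± 0.133% in uninjured CD31+ cells, 2.72 ± 0.228% and 3.70 ± 0.329% in injured and uninjured CD45+ cells, 5.17 ± 0.197% and 2.27 ± 0.0337% in injured and uninjured MSC, and 7.12 ± 0.258% and 6.89 ± 0.571% in injured and uninjured MuSC (SD, n = 3 each). The 8 hosts together had 455 ± 71.0 CPM in injured and 230 ± 11.2 CPM in uninjured CD31+ cells, and 764 ± 30.7 CPM in injured and 417 ± 11.8 CPM in uninjured MSC. On this TMM-scaled measure they stayed at 373 ± 27.9 CPM in injured and 351 ± 44.0 CPM in uninjured CD45+ cells. In MuSC they stayed at 1005 ± 37.3 CPM in injured and 998 ± 64.1 CPM in uninjured libraries, both populations with overlap. As an unscaled share of counts, the hosts took less in injured MuSC, 0.109 ± 0.00363%, than in uninjured MuSC, 0.124 ± 0.00666%, with no overlap. That share was 0.0310 ± 0.00208% in injured and 0.0346 ± 0.00598% in uninjured CD45+ cells, with overlap. Per 1000 ribosomal protein counts the hosts held similar numbers in both states in 2 populations. These were 13.6 ± 1.87 injured and 12.6 ± 0.504 uninjured in CD31+ cells, and 14.7 ± 0.402 injured and 15.2 ± 0.717 uninjured in MSC. In CD45+ cells the ratio was 11.4 ± 0.424 injured and 9.31 ± 0.846 uninjured, and in MuSC it was 15.3 ± 0.544 injured and 18.1 ± 0.509 uninjured, with no overlap in either. Per 1000 biogenesis factor counts the hosts held fewer after injury in every population, with 131 ± 11.1 injured and 444 ± 35.9 uninjured in MuSC, the widest gap, and 173 ± 9.73 injured and 259 ± 13.0 uninjured in CD31+ cells. These sums are dominated by Gas5, so each host was also tested by itself.

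Relative to the summed ribosomal protein counts, used in place of the library size, the hosts divided. Snhg1, Snhg6 and Snhg15 rose by more than the ribosomal protein sum in CD31+ cells and MSC: in CD31+ cells by 0.68 ± 0.17, 1.14 ± 0.24 and 2.70 ± 0.35 on the log2 scale (SE, adjusted p = 0.00162, 4.29e-04 and 2.05e-06). The counts were 3 higher and 1 lower in CD31+ cells, against 3.21% and 49% of all genes, and 3 higher and 3 lower in MSC, against 5.76% and 57.2%. The hosts that fell behind were Snhg8 in CD31+ cells (-0.65 ± 0.14, adjusted p = 6.00e-04), and Snhg5 (-0.53 ± 0.18), Snhg8 (-1.02 ± 0.14) and Snhg12 (-0.53 ± 0.19) in MSC. The Snhg5 call was lost without injured MSC replicate 2 (adjusted p = 0.0610) and the Snhg12 call without uninjured MSC replicate 3 (adjusted p = 0.0761). Gas5 moved with the sum, at -0.09 ± 0.12 in CD31+ cells (adjusted p = 0.542), 0.09 ± 0.12 in CD45+ cells (0.627) and 0.07 ± 0.12 in MSC (0.642).

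In MuSC, Gas5 (-0.48 ± 0.12, adjusted p = 0.00219) and Snhg12 (-0.78 ± 0.18, adjusted p = 0.00140) fell relative to the ribosomal protein sum and Snhg6 rose (1.02 ± 0.21, adjusted p = 4.54e-04), so that 1 host was higher and 2 were lower, against 15.6% and 24.1% of all genes. With the median of the ribosomal protein list in place of its sum, Snhg8 was also lower in MuSC (-0.44, adjusted p = 0.0176). In CD45+ cells, where 21 of the ribosomal protein genes had fallen, Snhg1 (0.88 ± 0.17), Snhg5 (0.64 ± 0.20) and Snhg15 (1.28 ± 0.29) were higher and 0 were lower, against 20.4% and 13.4% of all genes. The Snhg5 call was lost without uninjured CD45+ replicate 1 (adjusted p = 0.0667), uninjured replicate 3 (0.0898) or injured replicate 1 (0.163).

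Relative to the summed counts of the biogenesis factors, most hosts and most genes were lower after injury in MSC and MuSC. In MSC 7 hosts were lower and 0 higher, against 84.4% and 1.21% of all genes, and in MuSC 7 were lower and 0 higher, against 72.7% and 2.9%. The 7 in MSC include the thinly counted Snhg3 (-2.18 ± 0.63, adjusted p = 0.00268), whose log2 fold change in CPM there was 0.12 ± 0.61. With the median of the biogenesis list in place of its sum, 5 hosts were lower in MSC, without Snhg1 (-0.40, adjusted p = 0.0741) and Snhg6 (-0.33, adjusted p = 0.240); Snhg6 was also lost there when Npm1 and Ncl were left out of the sum (-0.46, adjusted p = 0.0768). In CD31+ cells 4 were lower and 1 higher, against 72.8% and 1.16%, and in CD45+ cells 3 were lower and 0 higher, against 40.4% and 4.85%. The shares of hosts lower stood near the background in CD45+ cells and MSC and below it in CD31+ cells. In MuSC the place above the background rested on the Snhg6 call, which several alternatives lost, as given below. The shares were not tested against the background. The host that was higher, Snhg15, rose beyond the biogenesis factors in CD31+ cells by 1.99 ± 0.34 (SE, adjusted p = 1.39e-05). Gas5, Snhg8 and Snhg12 were lower in all 4 populations by this measure, with Gas5 at -0.79 ± 0.11 in CD31+ cells, -0.71 ± 0.11 in CD45+ cells and -1.36 ± 0.11 in MSC. The Snhg6 call in MuSC (-0.52 ± 0.23, adjusted p = 0.0426) was lost without uninjured replicate 3 (-0.22, adjusted p = 0.416), injured replicate 1 (0.0730), injured replicate 2 (0.114) or injured replicate 3 (0.0608), when Npm1 and Ncl were left out of the sum (-0.35, adjusted p = 0.176), and with the median of the list (-0.35, adjusted p = 0.210).

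**Figure D4:**
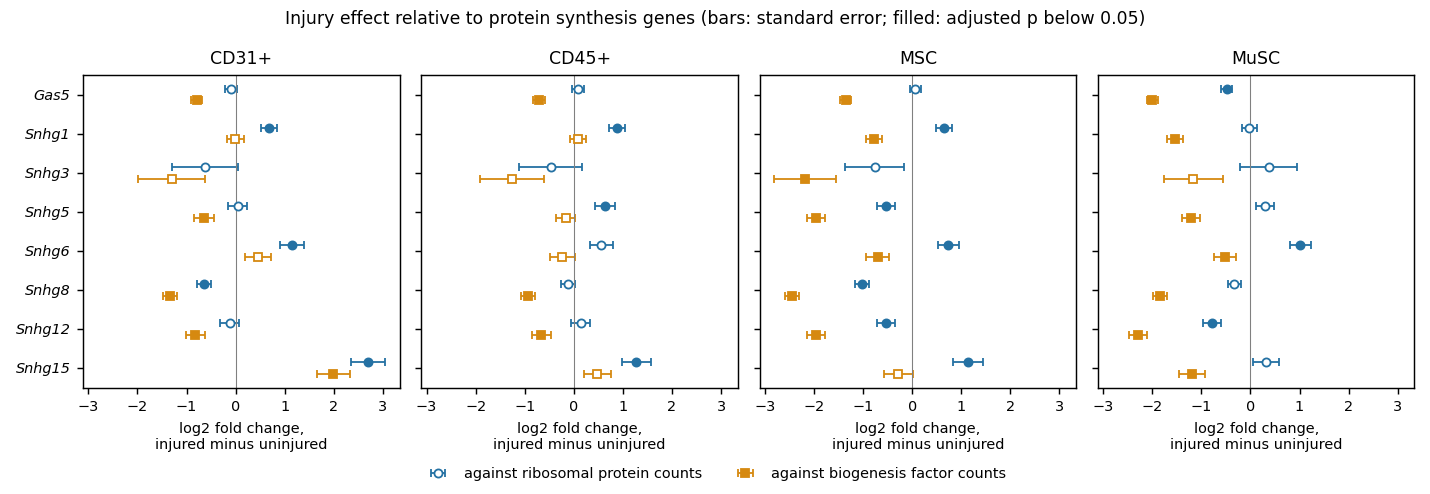
Log2 fold change, injured minus uninjured, of each host relative to the summed counts of 78 ribosomal protein genes (blue circles) and of 21 biogenesis factors (orange squares), with bars for the standard error and filled symbols for an adjusted p below 0.05. Gas5 lies within 0.09 of 0 against the ribosomal proteins in all populations but MuSC, and every host lies further left against the biogenesis factors.

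Of 13 further noncoding snoRNA hosts listed, 12 were in the table and 9 were tested. Snhg4 was the one that rose in all 4 populations, most in MSC, with 76.9 ± 9.08 CPM injured and 8.35 ± 2.24 CPM uninjured (log2 fold change 3.22 ± 0.26, SE, adjusted p = 8.32e-10) and least in CD45+ cells (0.73 ± 0.28, adjusted p = 0.0423). Zfas1 followed the ribosomal protein pattern, with 0.92 in CD31+ cells, 1.17 in MSC and 0.47 in MuSC, all passed, and -0.15 in CD45+ cells, which was not. Snhg17 rose in CD31+ cells (1.93 ± 0.22) and MSC (0.84 ± 0.20), and Dancr in MSC (1.15 ± 0.45) and MuSC (1.38 ± 0.45). In the other direction, Snhg18 had 42.2 ± 2.66 CPM in injured MSC and 101 ± 13.1 CPM in uninjured MSC (-1.26 ± 0.33, adjusted p = 0.00361), and Epb41l4aos had 4.77 ± 2.18 CPM in injured and 9.52 ± 0.923 CPM in uninjured CD45+ cells (-0.99 ± 0.36, adjusted p = 0.0379). In CD45+ cells Snhg18 had 0 counts in the 3 injured libraries and 9, 1 and 0 counts in the uninjured ones, so the groups overlapped at 0 and 1 library held 9 of the 10 counts; its adjusted p below the threshold there is not read as a change. Snhg10, Snhg14 and Snhg20 passed in no population, and Snhg7, Snhg9 and Snhg11 were too low to test. Over the 4 populations, in the order CD31+, CD45+, MSC and MuSC, 3, 1, 4 and 3 of the 9 were higher and 0, 2, 1 and 0 lower, with Snhg18 among the 2 in CD45+ cells. Of all genes, 14.1%, 16%, 18.3% and 21.4% were higher and 9.3%, 18.5%, 23.6% and 17.5% lower in that order. The counts in CD45+ cells were thus near the background.

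Several hosts lie close to protein-coding genes, and the library kit does not mark strand, so reads from overlapping exons on opposite strands cannot be told apart. Gm17300 overlaps 71.5% of the Snhg3 exon bases from the opposite strand, and Rcc1, the nuclear exchange factor for Ran, overlaps 13.69% on the same strand. Rcc1 rose in all 4 populations, in MuSC with 326 ± 45.2 CPM injured and 58.5 ± 1.90 CPM uninjured (log2 fold change 2.48 ± 0.18, SE, adjusted p = 2.15e-10). The counts of Snhg3 are uncertain for that reason as well. Mcmdc2 overlaps 11.08% of the Snhg6 exon bases but had at most 4.44 ± 1.44 CPM, in injured CD45+ cells. Slc3a2, the heavy chain of an amino acid transporter, begins 106 bases from Snhg1 on the other strand, with no overlap; its log2 fold change was 0.89 in CD31+ cells, 1.66 in CD45+ cells, 0.85 in MSC and 0.58 in MuSC, all passed. Against the ribosomal protein sum Slc3a2 stood at 0.01 in CD31+ cells and -0.07 in MSC, where Snhg1 stood at 0.68 and 0.65. Zbtb37, which overlaps the Gas5 gene but none of its exon bases, was lower in injured CD31+ cells (-0.89 ± 0.32, adjusted p = 0.0441), where Gas5 rose.

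Over the 24 libraries, the genes whose log2 CPM followed the mean standardized level of the 8 hosts most closely were Rpl4 (Pearson r = 0.986), Rplp0 (0.978), Ahcy (0.975), Rpl10a (0.973) and Rpl36a (0.969), of 13539 named genes compared. Rpl4 is itself a snoRNA host and encodes a protein of the large ribosomal subunit, as Rplp0, Rpl10a and Rpl36a do, while Ahcy encodes adenosylhomocysteinase. The median r was 0.92 over the ribosomal protein genes, 0.93 over the protein-coding hosts, 0.76 over the biogenesis factors, 0.17 over the decay factors and 0.00 over all genes compared. It was 0.51 over the 9 other noncoding snoRNA hosts tested. For the snoRNP, RNA polymerase I and translation factor lists it was 0.75, 0.73 and 0.68. Among the hosts the 21 pairs without Snhg3 had r between 0.41 for Snhg8 with Snhg15 and 0.95 for Gas5 with Snhg12, and the 7 pairs with Snhg3 had r between 0.28 and 0.50. The libraries fall into 8 groups and share their depth and scaling between genes, so these values describe the pattern and carry no test.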

How the data were processed

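Polyadenylated RNA of 1000 sorted cells per library was amplified, cut with Nextera XT and sequenced as paired reads of 25 bases, per the labels' protocols. The authors deposited whole-number read counts per gene symbol for 24 libraries; STAR 2.5.4, featureCounts and mm10 are named in the submitters' processing notes. Which annotation and strand setting were used, and how reads with several hits were treated, the labels leave unstated. No molecular identifiers are described, so floors cover counting error only. The design text calls the 3 samples of a group biological replicates.

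Counts were analysed in R 4.3.3 with edgeR 4.0.16: filterByExpr (minimum count 10), TMM scaling, and the robust quasi-likelihood test on 8 group means with 16 residual degrees of freedom and Benjamini-Hochberg adjustment over 16263 genes (threshold 0.05). SE is the log2 fold change divided by the root of F. Relative effects replaced the library size by summed counts of 78 ribosomal protein or 21 biogenesis genes. DESeq2 1.42.0, limma-voom (limma 3.58.1), other scalings, no filter, the 6 libraries of a population alone, a replicate block and leaving out each library were the alternatives; leaving Npm1 and Ncl, or the snoRNA-hosting ribosomal protein genes, out of the sums was added after seeing the data. The scripts were tested on simulated counts.

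The hosts and gene lists were chosen with earlier results of these data known. The text names all 8 hosts, all other noncoding hosts, genes among the 3 with the smallest adjusted p of a list and population, overlapping or nearest genes, and the 5 genes most like the hosts. Of 52997 symbols, 49365 matched GENCODE vM21 names, the source of positions, lengths and snoRNA sequences; start sites are from RefSeq (GRCm38.p6). Replicate numbers were not taken as pairs: the labels tie them to no animal, and same-numbered libraries correlated at -0.08 to 0.07 around their group means.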

Additional observations from a re-analysis of the deposited data

Results flagged for a closer look

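The injury effect of 5 hosts differed between the 4 populations by edgeR's F test on the interaction of population and injury, adjusted over all genes. The adjusted p was 3.01e-06 for Gas5, which had 2 rises and no change past the threshold in CD45+ cells and MuSC. It was 2.51e-05 for Snhg15, whose effect was 3.56 in CD31+ cells, 2.07 in MSC, 1.08 in CD45+ cells and 0.57 in MuSC. It was 8.63e-05 for Snhg1, 0.00261 for Snhg12, which was called higher in CD31+ cells and lower in MuSC, and 0.00560 for Snhg6. With limma-voom the difference for Snhg6 was no longer past the threshold (0.0721). The background for this test was 35.9% of all genes.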

How the results depend on the processing

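Limits: 3 libraries a group, CPM that are relative within a library, and thin counts for Snhg3. RLE size factors moved the median of all genes from -0.04 to -0.14 in CD31+ cells, and the share of calls that were higher from 60.3% to 48.3%; upper quartile scaling gave 50.2%. In MuSC the medians were -0.13 and -0.16. The counts of hosts called in CD31+ cells (6 higher) and MSC (4 higher) held within 1.5 times under every alternative run. That limit allowed 2 further calls in MSC on its 6 libraries alone, Snhg5 (adjusted p = 0.00175) and Snhg12 (adjusted p = 0.0103).

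Hosts lower in CD45+ cells numbered 1 with upper quartile scaling and with DESeq2 (0 in the report). In MuSC the number higher was 1 with upper quartile scaling, and the number lower was 2 with RLE, upper quartile, DESeq2 and limma-voom and 0 with no filter. Leaving out 1 library at a time gave 1 to 2 higher and 0 to 1 lower in MuSC, 2 to 3 higher in CD45+ cells, 4 to 5 in MSC and 6 in CD31+ cells, and 2 to 4 hosts highest in injured MuSC and 5 to 7 in uninjured MuSC. Changes of sign concerned only effects not called: with no filter Snhg12 in CD45+ cells (0.017), Snhg8 in MSC (0.093) and Snhg8 in MuSC (0.0087), and with the 6 libraries alone Snhg8 in MSC (0.066). Against the biogenesis factors they were Snhg1 in CD45+ cells by the median of the list (-0.22) or without Npm1 and Ncl (-0.16), and Snhg15 in MSC by the median of the list (0.080). Leaving out single libraries gave both signs for Snhg3 in CD31+ cells (-0.090 to 0.71) and in MSC (-0.25 to 0.54), Gas5 (-0.21 to 0.0011) and Snhg12 (-0.21 to 0.017) in CD45+ cells and Snhg8 in MSC (-0.12 to 0.074). Against the ribosomal proteins it did so for Gas5 (-0.23 to 0.0084) and Snhg5 (-0.096 to 0.21) in CD31+ cells, and for Snhg1 (-0.083 to 0.043) and Snhg3 (-0.0072 to 0.61) in MuSC. Against the biogenesis factors the ranges were -0.059 to 0.040 for Snhg1 in CD31+ cells, and -0.052 to 0.26 for Snhg1 and -0.40 to 0.079 for Snhg5 in CD45+ cells. The cause was not tested.

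Same-numbered libraries share only a number. With the replicate block, 1 call changed, that of Snhg6 in MuSC against the biogenesis factors (-0.51, adjusted p = 0.0511), which made 6 hosts lower in place of 7, and 3 hosts in place of 4 were highest in injured MuSC; 5 hosts again passed the test of a difference between populations, and the counts in CD31+ cells, CD45+ cells, MSC and MuSC were again 6, 2, 4 and 2 higher.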
